A study of Rattus norvegicus with 9 samples.

Results

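The genes described here are 16 enzymes of glycolysis and 19 genes of the hypoxia response, 35 of the 22050 genes in the deposited tables, in primary cortical neurons of Sprague Dawley rats taken at embryonic day 19 (E19). They were chosen by symbol: the enzymes from hexokinase to pyruvate kinase with their paralogs and the enzymes that set fructose 2,6-bisphosphate, the subunits of the hypoxia-inducible factor (HIF), the proteins that lead to HIF degradation, and 12 other genes known as HIF targets. RNA sequencing was run on 9 libraries in 3 groups of 3. Control cultures were untreated. The next group underwent OGD (oxygen-glucose deprivation), which mimics stroke in a dish: cells were kept at 1% oxygen in medium lacking glucose and pyruvate for 4.5 h and were then given normal oxygen and regular medium. The last group went through OGD and normal oxygen and received 100 ng/ml Wnt3a, a Wnt ligand, with 50 ng/ml Rspondin 1, a secreted protein that strengthens Wnt signalling, for 24 h. The duration and oxygen level are given for OGD alone, and the interval between OGD and harvest is not known from the labels. The labels do not tell whether replicates are independent cultures or litters; the p-values measure spread among these libraries, which may be technical. The stated question was how Wnt3a plus Rspondin 1 regulates genes in neurons under OGD.

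Glycolysis converts glucose to pyruvate in the cytosol and yields ATP without oxygen. Its flux is set mainly at hexokinase, phosphofructokinase and pyruvate kinase, and most steps have several paralogs that differ between neurons and glia. HIF is a heterodimer of an oxygen-regulated alpha subunit (HIF1A or EPAS1) and the constant subunit ARNT. In normal oxygen the EGLN prolyl hydroxylases mark the alpha subunit, VHL binds it and it is degraded. In low oxygen it is kept and binds promoters at a core of the letters ACGTG or GCGTG. Many glycolysis genes and the other targets described here are known to rise in hypoxia in many cell types, and HIF protein itself is not measured by RNA.

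Library totals ran from 14285914 to 25048521 counts. OGD replicate 1 stood apart from the other 8 libraries on the second principal component of all tested genes (38.8 against -13.9 to 10.5; 4.63% of the variance), while the first (84.1%) separated controls from the rest. The labelled cell type was checked against marker lists by their summed FPKM (reads per gene scaled by gene length and library total, a level per length). The 12 neuron markers, led by Tubb3, summed to 3006 to 3149 in control libraries, to 517 to 696 after OGD and to 519 to 673 with Wnt3a plus Rspondin 1, and 12 of 12 fell in OGD against control. The 11 astrocyte markers, led by Gfap, were present already in control at 2515 to 2685 and summed to 6719 to 7338 after OGD and 6335 to 6635 with the proteins; 10 of 11 rose. Neural progenitor markers (9, led by Fabp7) went from 1053 to 1184 in control to 4031 to 4601 in OGD, with 7 higher, 1 lower and 1 not called. Oligodendrocyte lineage markers (9, led by Cnp) went from 428 to 513 to 1095 to 1106, with 6 higher and 3 lower. Microglia markers (9 in the tables, led by C1qc) were low, at 3.43 to 5.71 in control and 21.9 to 24 in OGD, and 7 of 7 tested rose. Markers of mural cells and fibroblasts (7, led by Tagln) summed to 92.4 to 116 and 669 to 884; of 6 tested, 3 rose, 2 fell and 1 was not called, and most of the sum was Tagln (96.8 FPKM on average in control and 749 in OGD). The 6 endothelial markers in the tables, led by Ramp2, summed to 29.8 to 34.2 and 15 to 16.8, with Cldn5 at 0 in all libraries. That sum was almost all Ramp2 (31.1 FPKM on average in control and 14.6 in OGD), which fell, while the other 2 tested, Kdr and Tek, rose from low levels (0.310 to 1.35 and 0.0467 to 0.187 FPKM); Cldn5, Kdr and Tek were named after their values were seen. In these bulk libraries fewer cells of a type and less RNA per cell cannot be told apart, and the part of these shifts in the results on OGD below was not tested. FPKM summed to 485493 to 491888 in control libraries and to 527473 to 549463 in the others, so a gene can be somewhat higher in FPKM without a change in the scaled counts that were tested.

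In OGD against control, glycolysis and HIF target genes were more often lower than higher. All 35 genes passed the filter on low counts. With edgeR's quasi-likelihood test and Benjamini-Hochberg adjustment over 13693 genes (called at an adjusted p under 0.05), 27 of the 35 were called, 7 higher and 20 lower. The background was high: 73.1% of all tested genes were called, 36.3% higher and 36.8% lower. The median log2 change was -0.34 over the 35 genes and 0.02 over all tested genes. Among the 16 glycolysis genes 2 rose, 10 fell and 4 were not called (median -0.31), and among the 19 HIF genes 5 rose, 10 fell and 4 were not called (median -0.49). The authors' deposited table also gave 27 of the 35 an FDR under 0.05, 7 higher and 20 lower. Without OGD replicate 1, 29 were called, the same 27 plus Gpi and Egln2.

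**Figure D1:**
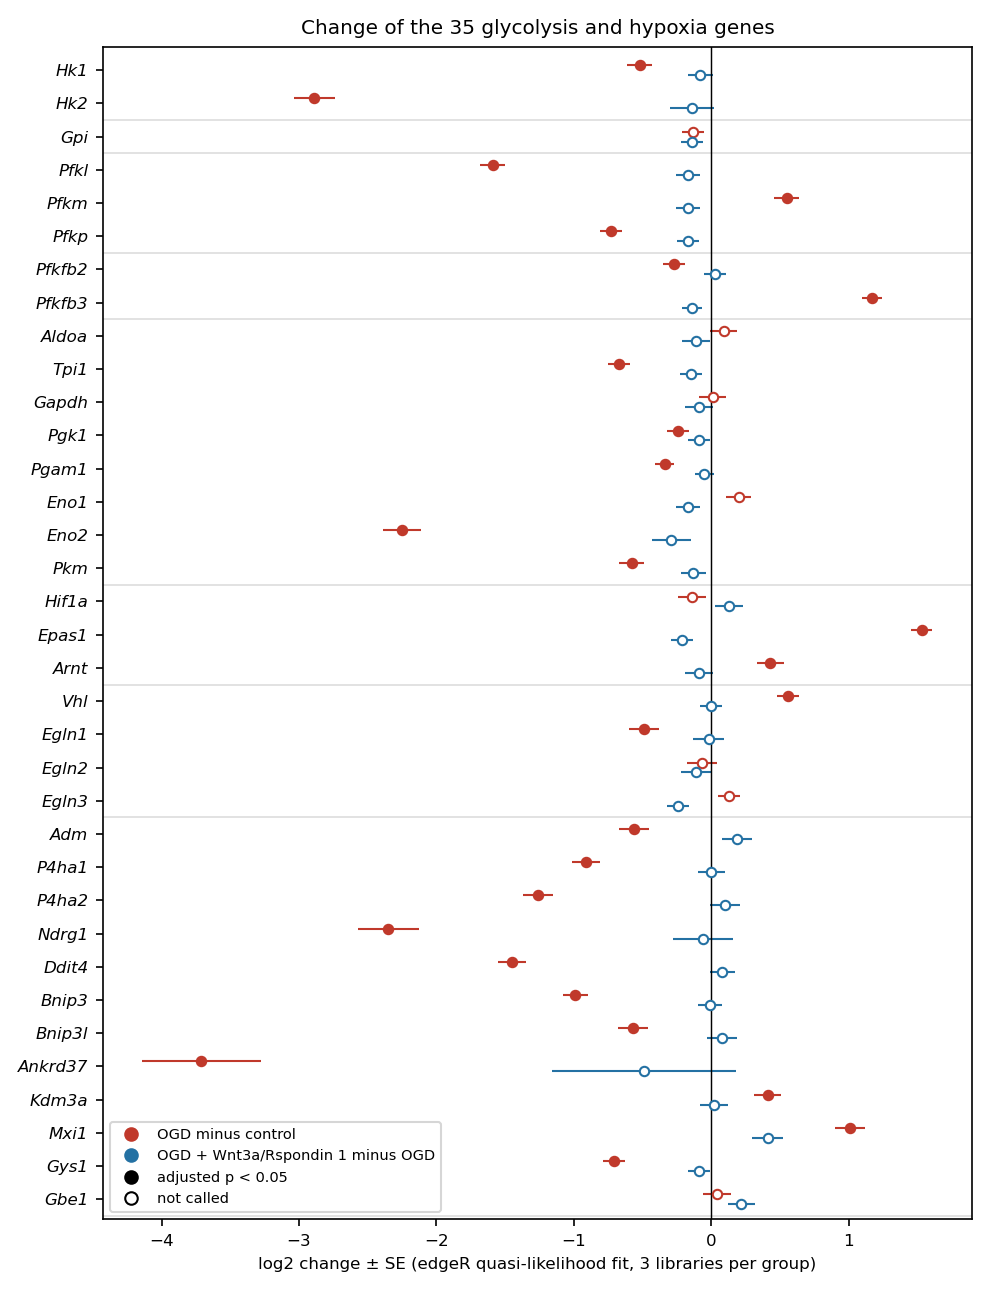
Log2 change with its standard error (x axis) of each of the 35 genes (y axis, grouped by role) in OGD minus control (red) and in OGD with Wnt3a plus Rspondin 1 minus OGD (blue); filled points had an adjusted p under 0.05. The red points run from -3.71 (Ankrd37) to 1.53 (Epas1), and no blue point is filled.

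Hexokinase, which traps glucose in the cell as glucose 6-phosphate, fell in both measured forms. Hk1, the main brain form (ENSRNOG00000046891), stood at 149, 135 and 126 FPKM in control and at 114, 93.6 and 96.3 FPKM in OGD. The groups did not overlap, and the change was -0.52 ± 0.09 (log2 ± SE, 3 libraries a group; adjusted p = 0.000262). Hk2 (ENSRNOG00000006116), the form most often described as inducible by hypoxia, read 15.5, 14.0 and 12.1 FPKM in control and 1.89, 2.02 and 2.01 FPKM in OGD. Every OGD library lay far below every control library, a 7.43-fold fall (-2.89 ± 0.15, adjusted p = 2.82e-09). Hk2 thereby made up 9.18% ± 0.378 (SD, n = 3) of the summed Hk1 and Hk2 level in control and 1.93% ± 0.258 in OGD. Gpi, which isomerises glucose 6-phosphate to fructose 6-phosphate, was at 299 to 328 FPKM in control and 285 to 335 FPKM in OGD. Its groups overlapped, with a change of -0.13 ± 0.08 (95% interval -0.33 to 0.08, adjusted p = 0.183); without OGD replicate 1 it was -0.20 (adjusted p = 0.0197, from 0.0197 to 0.619 over 18 alternatives).

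The 3 phosphofructokinase genes, whose products form the tetramer of the committed step, moved in different directions. Pfkl, the liver-type subunit (ENSRNOG00000001214), read 155, 142 and 134 FPKM in control and 55.1, 45.6 and 51.4 FPKM in OGD. It fell 3.01-fold (-1.59 ± 0.09, adjusted p = 7.66e-09), with no overlap. Pfkp, the platelet-type subunit, was at 73.5, 66.9 and 63.0 FPKM in control and at 46.6, 41.4 and 42.4 FPKM in OGD, which was also lower (-0.73 ± 0.08, adjusted p = 4.09e-06). In contrast, Pfkm, the muscle-type subunit (ENSRNOG00000057988), rose from 152, 149 and 137 FPKM to 255, 216 and 206 FPKM. That change was 0.55 ± 0.09 (adjusted p = 0.000113), and its groups were also apart. The summed level of the 3 genes was 357 ± 22.8 FPKM in control and 319.8 ± 32.1 FPKM in OGD (SD, n = 3), with overlap between the groups. Pfkm supplied 40.8% ± 0.870 of that sum in control and 70.5% ± 1.56 in OGD, while Pfkl went from 40.2% ± 0.550 to 15.9% ± 1.12 and Pfkp from 19% ± 0.327 to 13.6% ± 0.546.

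Pfkfb2 and Pfkfb3 make and remove fructose 2,6-bisphosphate, the strongest activator of phosphofructokinase; PFKFB3 mainly makes it. Pfkfb3 (ENSRNOG00000018911) was at 85.9, 86.3 and 81.3 FPKM in control and 221, 197 and 193 FPKM in OGD. It rose 2.24-fold, with no overlap (1.17 ± 0.07, adjusted p = 1.45e-08). Pfkfb2 read 21.3, 22 and 21.0 FPKM in control and 19.2, 18.3 and 20.2 FPKM in OGD, a small fall (-0.27 ± 0.08, adjusted p = 0.00682) that was not called by limma on log2(FPKM + 1) (adjusted p = 0.0863, from 0.00238 to 0.0863 over the alternatives). The summed level of both went from 106 ± 3.19 to 223 ± 15.3 FPKM, and the share of Pfkfb3 from 79.7% ± 0.340 to 91.3% ± 0.758.

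From aldolase to pyruvate kinase, 5 of 8 genes fell and 3 were not called, beside 36.8% of all tested genes that fell. Aldoa, which splits fructose 1,6-bisphosphate, was among the genes with overlapping groups, at 765 to 869 FPKM in control and 861 to 1058 FPKM in OGD (0.09 ± 0.10, 95% interval -0.15 to 0.34, adjusted p = 0.424). Tpi1, which interconverts the triose phosphates, fell from 522, 520 and 505 FPKM to 362, 334 and 333 FPKM (-0.67 ± 0.08, adjusted p = 6.16e-06). Gapdh, which oxidises glyceraldehyde phosphate and is a common reference gene, stood at 1530, 1444 and 1305 FPKM in control and 1765, 1387 and 1420 FPKM in OGD. The groups overlapped and the change was 0.01 ± 0.10 (95% interval -0.24 to 0.26, adjusted p = 0.93).

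The next genes, Pgk1, Pgam1 and Pkm, fell. Pgk1, the first ATP-forming enzyme, was at 419, 399 and 370.0 FPKM in control and 355, 354 and 356 FPKM in OGD (-0.24 ± 0.08, adjusted p = 0.0138). This was the weakest call of the 27, lost without control replicate 1 (adjusted p = 0.068) or replicate 2 (0.0505), with a range from 0.00509 to 0.0728 over 18 alternatives. Pgam1, the phosphoglycerate mutase, fell from 384, 371 and 353 FPKM to 318, 308 and 299 FPKM (-0.34 ± 0.07, adjusted p = 0.000567). Pkm, the pyruvate kinase of brain, fell from 712, 664 and 631 FPKM to 559, 456 and 480.4 FPKM (-0.58 ± 0.09, adjusted p = 7.41e-05). These 3 genes had separate groups with every OGD library below every control library.

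The enolases, which form phosphoenolpyruvate, parted. Eno1, the general form (ENSRNOG00000017895), read 1110, 1071 and 1037 FPKM in control and 1449, 1242 and 1229 FPKM in OGD. Its groups did not overlap in FPKM, yet the change in scaled counts was 0.20 ± 0.09 with an adjusted p of 0.0501, just outside the threshold (from 0.00515 to 0.153 over the alternatives; 0.0417 without OGD replicate 2, 0.0288 without OGD replicate 3 and 0.0443 without replicate 3 of Wnt3a plus Rspondin 1). Eno2 (ENSRNOG00000048365), the neuron-specific form, fell 4.74-fold from 127, 122 and 109 FPKM to 26.8, 23.0 and 30.7 FPKM (-2.25 ± 0.14, adjusted p = 1.48e-08). It was the second largest fall among the 16 glycolysis genes. Its share of the enolase level went from 10% ± 0.446 to 2.02% ± 0.356. The neuron marker sum given above also fell, and a link between these falls was not tested.

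For 4 of these genes the tables hold a second row taken as a near-identical copy, and the sequences were not compared. The counting may have split reads within such a pair. These rows were chosen after their values were seen. LOC100911625, annotated as gamma-enolase-like, held 48.6% of the reads of the Eno2 pair in control and itself changed by -2.34 ± 0.11, and the summed reads gave -2.29 ± 0.11 (adjusted p = 1.21e-09). With it, the Eno2 share of the enolase level was 18.1% ± 0.453 in control and 3.83% ± 0.585 in OGD. LOC100911515 held 22.6% of the Tpi1 pair, which summed to a change of -0.61 ± 0.08 (adjusted p = 1.64e-05). LOC108351137 held 45% of the Gapdh pair, which summed to 0.07 ± 0.10 (adjusted p = 0.527). AABR07044711.1 held 10.9% of the Pkm pair and had a change of its own of -0.01 ± 0.09 (adjusted p = 0.887), and the sum fell by 0.51 ± 0.08 (adjusted p = 0.000115). Levels and shares of these 4 genes are therefore uncertain, while all 27 calls were kept with the reads summed.

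**Figure D2:**
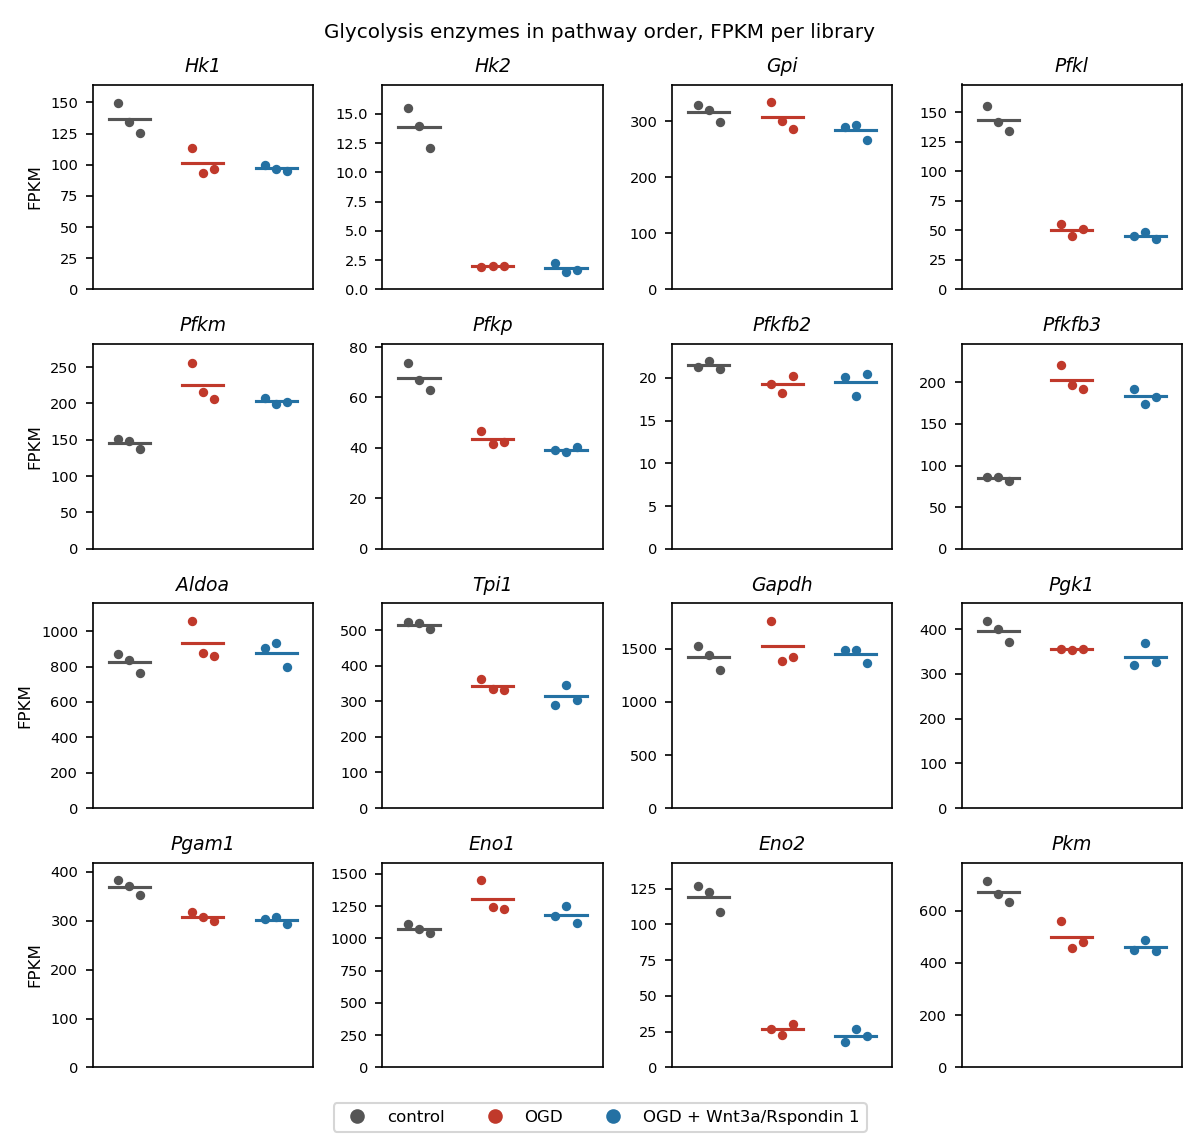
FPKM (y axis, from 0, a scale per gene) of the 16 glycolysis genes in pathway order in each library of control (grey), OGD (red) and OGD with Wnt3a plus Rspondin 1 (blue); points are libraries and lines are group means. Hk2, Pfkl and Eno2 drop from control to both OGD groups, Pfkm and Pfkfb3 rise, and Gapdh overlaps across groups.

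Over the 8 paralog families of the 35 genes, 12 shares were computed, and 10 did not overlap between OGD and control. Beside this, the FPKM of 75.3% of all tested genes did not overlap, and no background was computed for shares. The phosphofructokinase shares sum to the whole, as do the Egln shares, so the 12 are not separate results. With 3 libraries against 3, the exact two-sided permutation test cannot go below p = 0.1, which each of these 10 reached, and p adjusted over 24 share tests was 0.2. The change of a share is therefore not called, although single genes were.

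**Figure D3:**
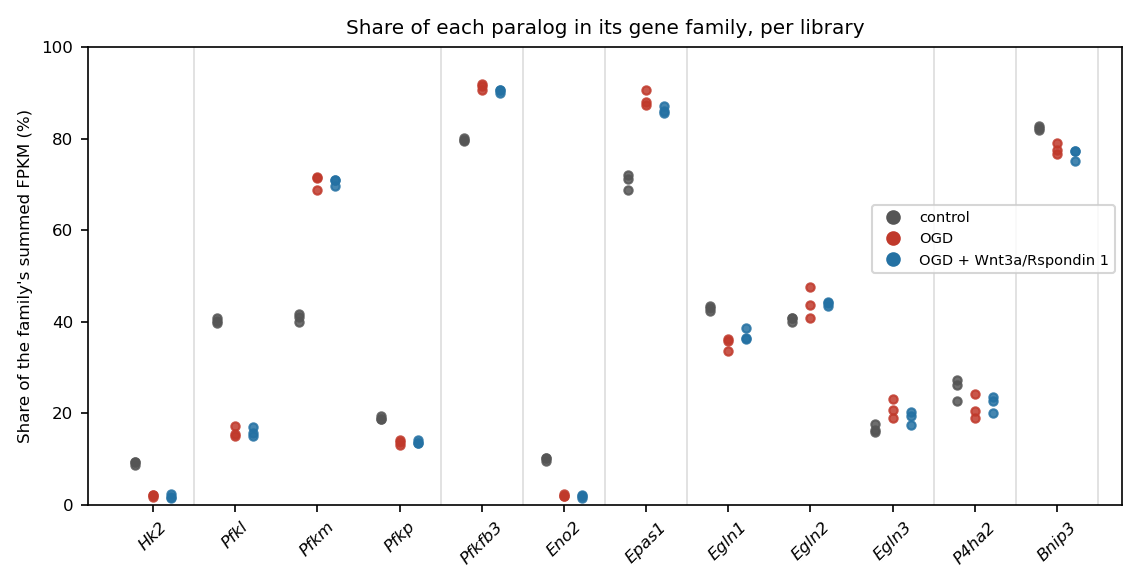
Share of 12 paralogs in the summed FPKM of their family in percent (y axis), with 1 point per library of control (grey), OGD (red) and OGD with Wnt3a plus Rspondin 1 (blue); vertical lines separate families. Pfkm moves from about 40.8% to 70.5% and Epas1 from 70.6% to 88.6%, while the red and blue points lie close together.

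Of the 3 HIF subunit genes among the 35, Epas1 and Arnt rose and Hif1a was not called. Epas1, which codes for HIF-2 alpha (ENSRNOG00000021318), was at 74.5, 80.2 and 70.1 FPKM in control and at 252, 225 and 213 FPKM in OGD. It was the largest rise of the 35 genes, 2.90-fold with no overlap (1.53 ± 0.08, adjusted p = 2.46e-09). Hif1a, which is mainly regulated as protein, read 28.9, 32.6 and 31.8 FPKM in control and 26.0, 30.9 and 30.9 FPKM in OGD. Its groups overlapped, with a change of -0.14 ± 0.10 (95% interval -0.38 to 0.11, adjusted p = 0.231). Epas1 was therefore 70.6% ± 1.69 of the summed alpha subunit level in control and 88.6% ± 1.75 in OGD, and that sum went from 106 ± 5.87 to 259 ± 17.1 FPKM. Arnt, the shared partner, was far lower than either alpha subunit, at 7.56, 6.85 and 7.52 FPKM in control and 10.8, 10.8 and 9.69 FPKM in OGD. The rise was 0.43 ± 0.10 (adjusted p = 0.00154). The 2 further subunit genes on the list of other HIF subunits and regulators, named after their values were seen, fell. Arnt2, a paralog of Arnt found mainly in neurons, went from 54.2, 54.2 and 51.7 FPKM to 41.4, 40.4 and 40.3 FPKM (-0.48 ± 0.08, adjusted p = 9.62e-05), and Hif3a from 1.83, 1.21 and 1.57 FPKM to 1.19, 1.09 and 0.86 FPKM (-0.65 ± 0.24, adjusted p = 0.0267).

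Among the genes for HIF degradation, Vhl rose and Egln1 fell. Vhl, the recognition subunit of the ubiquitin ligase, went from 29.8, 31.4 and 33.9 FPKM to 43.9, 54.4 and 49.9 FPKM, with no overlap (0.56 ± 0.08, adjusted p = 4.47e-05). Egln1, the main oxygen sensor in most cells (also known as PHD2), went from 50.7, 49.0 and 45.7 FPKM to 38.3, 35.9 and 35.7 FPKM (-0.49 ± 0.11, adjusted p = 0.00106). Egln2 overlapped between groups, at 43.1 to 47.7 FPKM in control and 40.6 to 54.4 FPKM in OGD (-0.07 ± 0.11, 95% interval -0.35 to 0.20, adjusted p = 0.572); without OGD replicate 1, which held its highest value, its change was -0.22 (adjusted p = 0.0349, from 0.0349 to 0.982 over the alternatives). Egln3, itself a HIF target, read 18.5, 18.7 and 19.1 FPKM in control and 21.6, 23.1 and 20.5 FPKM in OGD. These did not overlap, but the change in scaled counts was 0.13 ± 0.08 (adjusted p = 0.181; 0.0299 to 0.425 over the alternatives). As shares of the summed level of the 3 Egln genes, Egln1 went from 42.9% ± 0.541 to 35.1% ± 1.40, Egln2 from 40.5% ± 0.454 to 44.0% ± 3.43 with overlap, and Egln3 from 16.6% ± 0.982 to 20.9% ± 2.15.

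Of the 12 other HIF targets, 9 fell, 2 rose and 1 was not called, beside 36.8% of all tested genes lower and 36.3% higher. Ankrd37, a small ankyrin-repeat gene used as a hypoxia marker (ENSRNOG00000031335), had the largest fall of the 35 genes. It held 52, 40 and 72 counts in control (2.97, 2.94 and 3.30 FPKM) and 4, 4 and 3 counts in OGD (0.32, 0.21 and 0.22 FPKM). The fitted change was -3.71 ± 0.43 (95% interval -4.76 to -2.66, adjusted p = 4.37e-06), and the few counts after OGD limit its precision. Ndrg1, a stress-response gene induced by hypoxia, went from 64.8, 60.9 and 61.4 FPKM to 11.6, 9.68 and 17.0 FPKM, a 5.10-fold fall (-2.35 ± 0.22, adjusted p = 2.74e-06). Ddit4, which inhibits mTORC1 signalling, was at 260.3, 240.1 and 246 FPKM in control and at 109, 91.9 and 89.4 FPKM in OGD (-1.45 ± 0.10, adjusted p = 2.17e-08). All 3 had separate groups.

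P4ha1 and P4ha2 code for the catalytic subunits of collagen prolyl 4-hydroxylase. P4ha1 was at 43.4, 40.9 and 46.9 FPKM in control and 20.8, 27.6 and 25.8 FPKM in OGD (-0.91 ± 0.10, adjusted p = 2.57e-06), and P4ha2 fell from 16.3, 14.5 and 13.7 FPKM to 6.66, 6.43 and 6.62 FPKM (-1.26 ± 0.11, adjusted p = 2.51e-07). Both fell, and the share of P4ha2 in their sum overlapped between the groups (25.4% ± 2.45 and 21.2% ± 2.74). Bnip3 and Bnip3l, whose products promote removal of mitochondria by autophagy, also fell. Bnip3 went from 100.1, 98.6 and 114 FPKM to 49.6, 58.6 and 58.3 FPKM (-0.99 ± 0.09, adjusted p = 2.76e-07), and Bnip3l from 20.8, 22 and 24.4 FPKM to 13.2, 17.1 and 17.7 FPKM (-0.57 ± 0.11, adjusted p = 0.000455). The share of Bnip3 in the pair was 82.3% ± 0.505 in control and 77.7% ± 1.16 in OGD. Adm, the vasodilator peptide adrenomedullin, went from 14.6, 13.2 and 14.4 FPKM to 11.1, 9 and 10.5 FPKM (-0.56 ± 0.11, adjusted p = 0.000562).

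The 2 HIF targets that rose act on transcription. Mxi1, a repressor that opposes MYC (ENSRNOG00000034078), went from 18.8, 21.9 and 20.2 FPKM to 37.9, 44.4 and 47.7 FPKM, with no overlap (1.01 ± 0.11, adjusted p = 2.68e-06). Kdm3a, a histone H3 lysine 9 demethylase, went from 15.9, 16.4 and 17.3 FPKM to 20.1, 24.0 and 26.0 FPKM (0.41 ± 0.10, adjusted p = 0.00256). The 2 genes of glycogen synthesis among the targets differed from each other. Gys1, glycogen synthase, fell from 38.5, 35.2 and 35.6 FPKM to 24.9, 23.8 and 22.3 FPKM (-0.71 ± 0.08, adjusted p = 4.48e-06). Gbe1, the branching enzyme, was at 20.6 to 24.3 FPKM in control and 22.2 to 28.5 FPKM in OGD, which overlapped (0.04 ± 0.10, 95% interval -0.21 to 0.28, adjusted p = 0.749).

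**Figure D4:**
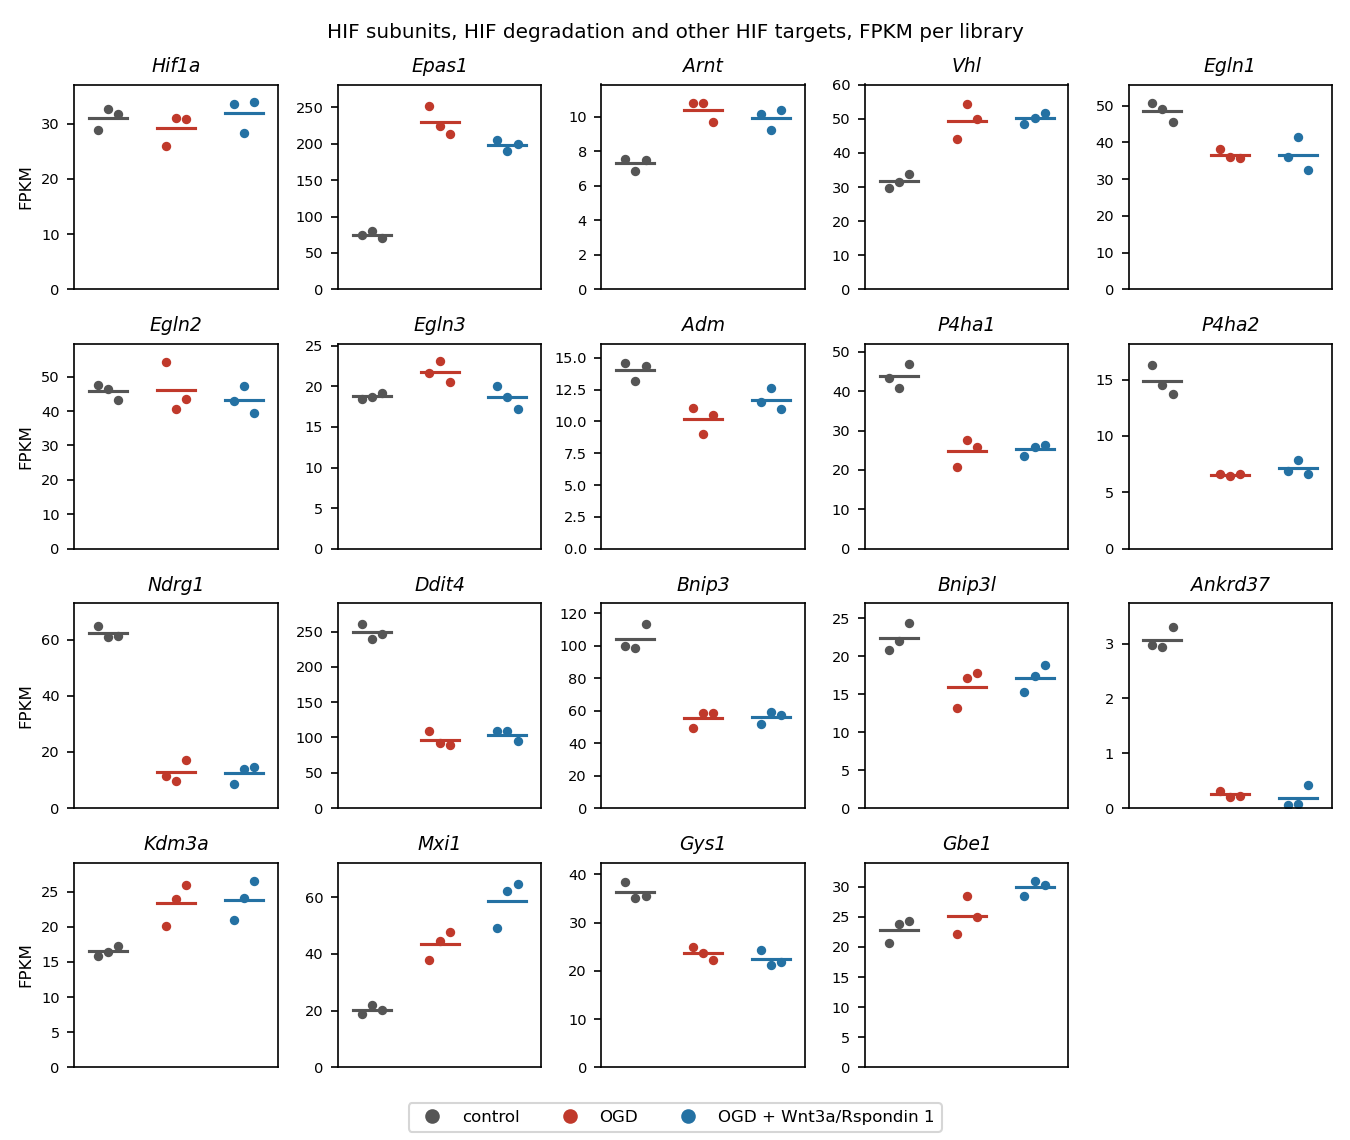
FPKM (y axis, from 0, a scale per gene) of the 19 genes of the HIF response in each library of control (grey), OGD (red) and OGD with Wnt3a plus Rspondin 1 (blue); points are libraries and lines are group means. Epas1, Vhl and Mxi1 rise from control to both OGD groups, while Ankrd37, Ndrg1 and Ddit4 drop.

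Over all 35 genes, the FPKM of OGD and control did not overlap for 29 genes, 9 higher and 20 lower, beside 75.3% of all tested genes with no overlap in either direction.

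The HIF core letters were looked up in the promoters of the 35 genes. RefSeq windows of 300 bases (250 before and 50 after the start, build GRCr8) were matched by symbol for 32 of the 35 genes; Pgk1, Ndrg1 and Bnip3l had no entry. A run from 250 bases before to 10 after the start is printed 5′ to 3′ on the gene's strand for 4 genes, 3 that fell and hold 4 or 5 copies of the core and 1 that rose. Capitals mark ACGTG or GCGTG on either strand (read as CACGT or CACGC on the other strand), and a palindrome CACGTG holds 2 overlapping ACGTG matches. They are from chr16:53001257-53001516 on the plus strand (Ankrd37), chr10:38743644-38743903 on the plus strand (P4ha2), chr1:203154953-203155212 on the minus strand (Bnip3) and chr17:71944683-71944942 on the plus strand (Pfkfb3).
Ankrd37: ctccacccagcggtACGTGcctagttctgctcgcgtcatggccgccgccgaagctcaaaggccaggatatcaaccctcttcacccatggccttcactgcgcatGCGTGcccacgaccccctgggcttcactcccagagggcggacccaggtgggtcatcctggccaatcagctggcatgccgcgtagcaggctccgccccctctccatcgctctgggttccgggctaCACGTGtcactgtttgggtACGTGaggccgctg
P4ha2: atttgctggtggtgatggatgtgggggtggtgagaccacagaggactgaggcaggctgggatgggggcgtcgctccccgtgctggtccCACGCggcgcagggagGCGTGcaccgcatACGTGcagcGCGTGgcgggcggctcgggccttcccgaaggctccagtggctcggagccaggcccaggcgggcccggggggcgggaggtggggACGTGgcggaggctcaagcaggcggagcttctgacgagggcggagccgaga
Bnip3: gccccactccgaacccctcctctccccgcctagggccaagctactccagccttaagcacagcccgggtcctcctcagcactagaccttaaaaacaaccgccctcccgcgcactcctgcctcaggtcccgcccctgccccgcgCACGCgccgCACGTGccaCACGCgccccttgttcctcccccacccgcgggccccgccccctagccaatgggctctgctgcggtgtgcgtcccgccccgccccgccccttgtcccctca
Pfkfb3: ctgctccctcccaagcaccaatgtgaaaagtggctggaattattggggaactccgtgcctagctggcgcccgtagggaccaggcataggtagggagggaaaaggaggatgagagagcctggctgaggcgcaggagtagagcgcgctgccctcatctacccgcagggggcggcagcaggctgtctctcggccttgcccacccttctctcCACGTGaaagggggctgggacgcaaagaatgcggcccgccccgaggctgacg

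Ankrd37 held 5 matches, P4ha2 held 5 and Bnip3 held 4, and these genes fell. Pfkfb3, which rose, held 2 overlapping matches in a palindrome. These 4 genes were picked after the data were seen, so they do not show how matches relate to direction. At least 1 match stood in 23 of the 32 genes (71.9%), beside 9179 of 18999 protein-coding genes (48.3%) and 13937 of 33469 windows of all genes (41.6%). With ACGTG alone the numbers were 18 of 32 (56.2%), 21.4% and 19.3%. The median GC content was 63.3% in the windows of these genes and 55.0% in those of protein-coding genes, and these letters hold G and C. A match was present in 5 of 7 genes that rose, 12 of 17 that fell and 6 of 8 not called. A match describes letters and shows neither binding nor a site in use.

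Genes of the same pathways outside the 35 were counted as neighbours in OGD against control. The background for these counts is 36.3% of all tested genes higher and 36.8% lower. Of 11 other tested glycolysis genes, 4 rose, 4 fell and 3 were not called (median 0.03): Adpgk, an ADP-dependent glucokinase, rose by 1.29 ± 0.08 (adjusted p = 1.77e-08), Tigar, which lowers fructose 2,6-bisphosphate, fell by 1.19 ± 0.11 (5.37e-07), and Pgp, a phosphatase of glycolytic by-products, fell by 0.79 ± 0.09 (2.28e-06). The pentose phosphate pathway branches from glucose 6-phosphate and makes NADPH. Of its 7 genes 6 rose and 1 was not called (median 0.57), among them H6pd (0.88 ± 0.09, 2.18e-06) and Taldo1 (0.57 ± 0.07, 7.59e-06). Of 15 genes of glycogen metabolism 10 rose, 2 fell and 3 were not called (median 0.64). The phosphorylase kinase subunit gene Phkb rose by 1.20 ± 0.09 (4.28e-08). The liver phosphorylase gene Pygl fell by 2.18 ± 0.13 (6.89e-09), from a mean of 6.03 FPKM in control to 1.42 FPKM in OGD. The other phosphorylase genes on the list, Pygb and Pygm, named after their values were seen, rose. Pygb, the highest of them, went from a mean of 90.8 to 207 FPKM (1.10 ± 0.09, 1.07e-07). Pygm went from 2.32 to 3.74 FPKM (0.61 ± 0.15, 0.00243).

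Among 11 other HIF subunits and regulators, 1 rose, 5 fell and 5 were not called (median -0.21). The background over all tested genes was 36.3% higher and 36.8% lower. Cul2 and Eloc, 2 parts of the ligase that holds VHL, fell by 0.87 ± 0.10 (4.21e-06) and 0.84 ± 0.13 (7.37e-05), and Siah2, a ligase for EGLN proteins, by 1.15 ± 0.14 (5.52e-06). Vhl itself rose, so the called genes of this complex changed in opposite directions. Elob (-0.07 ± 0.10, 0.572) and Rbx1 (0.35 ± 0.16, 0.0663), 2 further parts named after their values were seen, were not called. Rbx1 was higher in FPKM in every OGD library than in every control library, and Elob overlapped. Of 26 other genes induced by hypoxia, 5 rose, 14 fell and 7 were not called (median -0.41), beside the same background. Vegfa, the vascular growth factor, fell from 130.1, 121 and 131 FPKM to 28.6, 28.5 and 29.5 FPKM (-2.23 ± 0.08, 2.6e-10). Angptl4, an inhibitor of lipoprotein lipase, rose from 7.77, 6.21 and 10.1 FPKM to 234, 214 and 256 FPKM (4.77 ± 0.17, 3.89e-10), and Hmox1, which degrades haem, rose by 2.04 ± 0.07 (2.39e-10). The lists were chosen with earlier results of these data known and their p-values are edgeR's, adjusted over all tested genes.

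**Figure D5:**
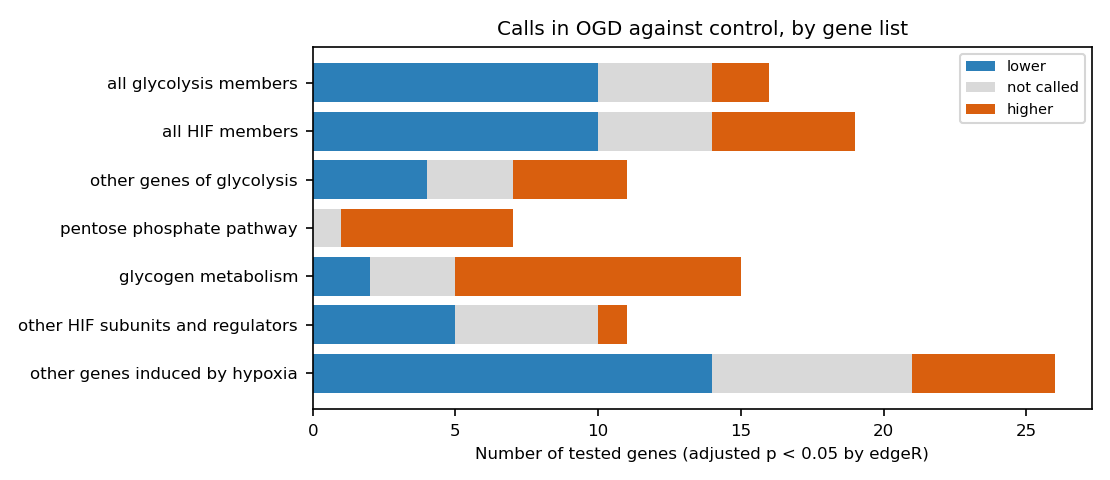
Number of tested genes (x axis) that were lower (blue), not called (grey) or higher (orange) in OGD against control at an adjusted p under 0.05, for the 16 glycolysis and 19 HIF genes described here and for 5 lists of neighbouring genes. The pentose phosphate list has 6 of 7 genes higher and the hypoxia list 14 of 26 lower. Over all tested genes 36.3% were higher and 36.8% lower.

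When Wnt3a plus Rspondin 1 were given with OGD, against OGD alone, none of the 35 genes was called by edgeR's quasi-likelihood test, beside 27 called genes (0.197%) over the whole table. At an unadjusted p under 0.05 there were 4 of the 35 (Egln3, Epas1, Gbe1 and Mxi1), beside 5.73% of all tested genes. DESeq2 and limma called none of the 35, and in the authors' deposited table none had an FDR under 0.05. FPKM did not overlap between these 2 groups for 5 of the 35, Mxi1 higher and Pfkp, Pfkfb3, Epas1 and Egln3 lower, beside 9.73% of all tested genes. The 5 neighbouring lists also held no called gene.

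Of the 4 genes with an unadjusted p under 0.05, Mxi1 and Gbe1 were higher with the proteins and Epas1 and Egln3 lower. Mxi1 read 49.2, 62.0 and 64.5 FPKM with the proteins, above the 37.9, 44.4 and 47.7 FPKM of OGD alone and further from control. Its change was 0.41 ± 0.11 (95% interval 0.15 to 0.68), with an adjusted p of 0.27 (from 0.0297 to 0.921 over the alternatives). Epas1 was at 206, 190 and 199.9 FPKM with the proteins, below each library of OGD alone, a change of -0.21 ± 0.08 (adjusted p = 0.647). Egln3 read 20.1, 18.7 and 17.2 FPKM (-0.24 ± 0.08, adjusted p = 0.581), which overlapped the control range. Gbe1 read 28.5, 31.0 and 30.3 FPKM (0.22 ± 0.10, adjusted p = 0.854), with its lowest value just under the highest of OGD alone.

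Among the glycolysis genes, Pfkfb3 read 192, 174 and 183 FPKM with the proteins (-0.14 ± 0.07, adjusted p = 0.941) and Pfkp 39.2, 38.3 and 40.2 FPKM (-0.17 ± 0.08, adjusted p = 0.94), with no overlap with OGD alone in either. Eno2 was at 17.9, 26.8 and 22.1 FPKM (-0.29 ± 0.14, 95% interval -0.63 to 0.05, adjusted p = 0.915). The row LOC100911625, taken as its copy, had a change of 0.17 ± 0.11 (adjusted p = 0.976), and the summed reads gave -0.06 ± 0.10 (adjusted p = 0.979). Hk2 stayed low at 2.29, 1.48 and 1.67 FPKM (-0.14 ± 0.16, 95% interval -0.53 to 0.25, adjusted p = 0.976), and Pfkl at 45.4, 48.5 and 42.9 FPKM (-0.17 ± 0.09, 95% interval -0.40 to 0.05, adjusted p = 0.951). None of these differences was called. Fitted changes lay below 0 for 15 of the 16 glycolysis genes, between -0.29 and 0.03, beside 49.6% of all tested genes. Without OGD replicate 1 the count was 12 of 16.

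The remaining HIF genes had fitted changes from -0.49 (Ankrd37, at 1, 1 and 6 counts; 95% interval -2.14 to 1.15) to 0.19 (Adm, 11.5, 12.6 and 11.0 FPKM; 95% interval -0.09 to 0.46). Ndrg1, at 8.45, 13.9 and 14.7 FPKM, and Ddit4, at 109, 109 and 95.1 FPKM, overlapped with OGD alone. Of the 12 paralog shares, 2 did not overlap between these groups, beside 9.73% of all tested genes whose FPKM did not overlap. The share of Epas1 was 88.6% ± 1.75 in OGD and 86.2% ± 0.760 with the proteins, and that of Egln1 35.1% ± 1.40 and 37.1% ± 1.30 (exact permutation p = 0.1 for each, the smallest possible, and 0.2 adjusted over the 24 tests). The share of Pfkm was 70.5% in both.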

How the data were processed

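RNA was sequenced from 9 libraries of rat cortical neurons, matched to 3 groups through the column names and sample titles. The authors deposited whole-number counts per gene, not normalized, and FPKM (counts scaled by gene length and library total), per the file headers. The gene length implied by counts and FPKM was equal within 5% over libraries for 30 of 34 genes with at least 100 counts in every library. It varied by up to 11.3% for Hif1a, 7.64% for Ndrg1, 6.09% for Pfkfb3 and 5.62% for Pkm. FPKM levels and shares carry this variation, which was not computed for the marker genes. Their tables also hold log2 ratios between group means of FPKM, and p-value and FDR columns deposited by the authors from a test not given in the sources used here. Bowtie 0.12.2 stands in the submitters' processing notes with 2 mouse builds (mm8, mm9), yet the gene identifiers are rat. Rat build, annotation, counter and use of strand are not given in the sources used here. Reads of overlapping or near-identical genes may be split.

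Counts were fitted with edgeR 4.0.16 (filterByExpr with a minimum count of 10 and a minimum total of 15, TMM factors from 0.943 to 1.033, a robust quasi-likelihood fit of all 9 libraries with 6 residual degrees of freedom, common biological coefficient of variation 10.3%), with Benjamini-Hochberg adjustment over 13693 genes. 95% intervals use the t distribution with 6 degrees of freedom. The edgeR test adds degrees of freedom borrowed from all genes, so these intervals are wider than its p-values imply. Group values are mean ± SD; shares of paralogs use FPKM, since genes of different length are compared, and an exact permutation test. DESeq2 1.42.0 and limma 3.58.1 (on log2(FPKM + 1) and log2(FPKM + 0.1)) were alternatives, with other scaling, no filter, fewer libraries and a replicate block.

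The genes and lists were chosen with earlier results of these data known. Every one of the 35 genes is described, of each neighbouring list up to 3 tested genes with the smallest adjusted p in OGD against control are named, and of each marker list the gene of highest mean FPKM; some genes that this rule gives are not reported here. The rows taken as near-identical copies and the printed promoters were chosen after the data were seen. Promoter sequences are from RefSeq (GRCr8).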

Additional observations from a re-analysis of the deposited data

How the results depend on the processing

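In OGD against control, between 26 and 29 of the 35 genes were called under 18 alternatives, and 601 of 630 values kept direction and call; no called change turned its direction. Calls moved for 6 genes (Pgk1, Pfkfb2, Eno1, Egln3, Gpi and Egln2), and 4 genes that were not called changed sign. With Wnt3a plus Rspondin 1 against OGD, 597 of 629 values kept direction and call, and 31 values of 12 genes that were not called changed sign. In that comparison the number of called genes over the whole table was 27, and 15 when the fit held the 6 libraries compared, 65 with a replicate block and 99 with DESeq2, while leaving out a library gave 12 (without replicate 2 of the proteins' group) to 49 (without OGD replicate 1). Without OGD replicate 2 it was 13, and without replicate 3 of the proteins' group 17. The replicate block called 1 of the 35 genes, Mxi1 (adjusted p = 0.0297, from 0.0297 to 0.921 over the alternatives); the block also called Eno1 besides the 27 genes in OGD against control. Deviations of same-numbered libraries from their group means correlated at 0.273, -0.055 and 0.105 between control and OGD and at 0.232, 0.073 and 0.267 between OGD and OGD with the proteins. In the latter every library correlated best with its own number, a hint from the data and not from the design, and not all values passed 0.1, so numbers were not taken as pairs. The cause of these shifts was not tested. With shares computed from counts in place of FPKM, 9 of 12 shares did not overlap between OGD and control, and the share of Egln2, which overlapped, changed by -0.0619 points in place of 3.52; that of Hk2 changed by -13.1 in place of -7.24 and that of Egln1 by -4.55 in place of -7.76. The ACGTG core alone left 18 of 23 promoters. Depth limits Ankrd37, at 1 to 6 counts a library after OGD.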
